A study of Mus musculus with 6 samples.

Results

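The genes described here are those of mouse chromosome 19, ordered along the chromosome by start position. They were chosen from the deposited counts: the 57186 genes included 1458 on chromosome 19, of which 843 had too few counts (the rule asked for at least 10 counts in each of 3 or more libraries) and 6 were Ifit genes left out by rule. That left 609 members. All but 1 of them, the gene model AC133451.1 with counts of 10, 0 and 9 in Y-KO and 40, 8 and 17 in Y-Scr, were tested, so 608 members carry a log2 fold change. At the edge of the rule stood 7 members whose third-highest count was 10, such as Gna14 (6, 0 and 0 in Y-KO, 26, 10 and 28 in Y-Scr), and 5 genes just outside it at 9, such as Crtac1 (0, 0 and 8, and 13, 16 and 9).

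The counts came from bulk RNA-seq of CD45-negative cells, the sorted fraction without the common leukocyte antigen, from MB49 tumours. MB49 is a bladder carcinoma line established from a male mouse. Y-KO cells had been edited with CRISPR to remove the Y chromosome and Y-Scr cells had a scrambled CRISPR control. Both were grown under the skin of C57Bl/6J mice to tumours of 500 mm3, and each group had 3 libraries with 1 batch label in all. The labels name neither separate animals nor cell clones, so a p-value reflects only how far these libraries scatter, which may be technical scatter, and a difference between the groups cannot be told apart from a difference between the edited cell populations. Members' values are differences of Y-KO from Y-Scr, and levels are CPM, counts scaled to library size in the usual way (edgeR's CPM, after TMM scaling).

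Library totals ran from 42040955 to 52951031. As a check of the labels, 4 Y-linked genes (Ddx3y, Eif2s3y, Kdm5d and Uty) summed to 47.3, 45.1 and 20.4 CPM in Y-KO replicates 1, 2 and 3 and to 296, 327 and 344 CPM in Y-Scr. Y-KO replicate 3 stood apart from the other Y-KO libraries: over the 331 members with a mean of at least 16 CPM, the median absolute log2 difference was 0.08 between Y-KO replicates 1 and 2, 0.18 between 1 and 3 and 0.19 between 2 and 3. The closest Y-Scr pair, replicates 2 and 3, differed by 0.06. Pan-leukocyte markers summed to 1864 to 4282 CPM in Y-KO and 4672 to 4905 CPM in Y-Scr, with 0 of 13 at 0 in all libraries, so the sorted fraction held leukocyte RNA. T and NK cell markers summed to 177 to 308 CPM against 990 to 1049 CPM (13 of 15 lower in Y-KO, none higher), macrophage markers to 1293 to 2306 against 1241 to 1391 CPM (6 of 10 higher) and fibroblast markers to 205 to 679 against 1056 to 1110 CPM (4 of 12 lower). Epithelial and tumour markers summed to 3276 to 3468 against 2408 to 2736 CPM, with 4 of 8 higher and 1 lower, and endothelial markers to 24.1 to 39.3 against 39.9 to 45.3 CPM with none called. In bulk samples, fewer cells of a type and less RNA per cell cannot be told apart, and the part that the cell mixture plays in the results below was not tested beyond the counts given.

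Genes of a chromosome usually share little beyond their address, and each is controlled by its own promoter and enhancers. A gain or loss of a chromosome or of a stretch of it changes the dose of every gene it carries and is common in tumour cell lines. Gene clusters whose members are active in the same cell type can also share a direction. Mouse chromosome 19 is the smallest mouse autosome, is rich in genes near its centromeric end, and carries the Ms4a cluster of membrane-spanning proteins of leukocytes beside the genes of many housekeeping enzymes.

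The following promoters belong to members whose values come up below: Klf9, which was high in Y-KO in a window whose median was near 0, and Ms4a4a and Ms4a4b, neighbours in the Ms4a cluster that differed in opposite directions. Each sequence runs 5′ to 3′ from 250 bases before to 50 bases after the start of the gene in RefSeq (GRCm38.p6), with CG pairs, the sites of DNA methylation, in capitals. The build is older than that of the counts, so these coordinates are not on the same scale as those of the genes below.
Klf9, chr19:23140976-23141275, + strand: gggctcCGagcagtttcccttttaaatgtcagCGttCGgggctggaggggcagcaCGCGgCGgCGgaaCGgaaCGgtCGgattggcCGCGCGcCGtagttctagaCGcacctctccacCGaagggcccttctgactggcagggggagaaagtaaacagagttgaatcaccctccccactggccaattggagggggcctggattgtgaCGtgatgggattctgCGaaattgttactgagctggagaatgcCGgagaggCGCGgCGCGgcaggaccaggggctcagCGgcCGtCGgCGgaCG
Ms4a4a, chr19:11375238-11375537, + strand: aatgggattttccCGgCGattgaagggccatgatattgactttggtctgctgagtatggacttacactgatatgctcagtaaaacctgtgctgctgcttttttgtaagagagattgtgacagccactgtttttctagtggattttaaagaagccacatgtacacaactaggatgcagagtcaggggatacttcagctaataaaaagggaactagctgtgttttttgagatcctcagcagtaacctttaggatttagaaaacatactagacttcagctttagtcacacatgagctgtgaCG
Ms4a4b, chr19:11443308-11443607, + strand: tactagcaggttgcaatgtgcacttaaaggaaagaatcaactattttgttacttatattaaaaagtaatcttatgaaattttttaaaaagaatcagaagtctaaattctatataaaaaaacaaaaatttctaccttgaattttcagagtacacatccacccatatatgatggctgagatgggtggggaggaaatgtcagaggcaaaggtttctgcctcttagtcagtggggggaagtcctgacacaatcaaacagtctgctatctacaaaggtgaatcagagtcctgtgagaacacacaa
The Klf9 window held 28 CG pairs, a number reached by 14.0% of 27025 mouse promoters of the same length, and the Ms4a4a window held 3 (76.2% of promoters had at least as many). The Ms4a4b window held 0, where 94.2% of promoters had at least 1 and the median was 7. Ms4a4b also held the letters TATAAA, found on either strand in 14.2% of the promoters.

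The median over all chromosome 19 members was shifted upward in Y-KO against the other autosomes, by a small amount and not evenly along the chromosome. The median log2 fold change of the 608 members was 0.15 (interquartile range -0.25 to 0.38), and that of 16625 genes on the other 18 autosomes was -0.03 (-0.42 to 0.24). The difference of 0.18 corresponds to a 13.2% higher level. The other autosomes ran from -0.14 for chromosome 15 to 0.03 for chromosome 10, and 0 of 18 reached chromosome 19. The same held in each Y-KO library against the Y-Scr mean: centred on the other autosomes, the chromosome 19 median was 0.19, 0.21 and 0.12 in Y-KO replicates 1, 2 and 3 (SD 0.05), where the highest of the other autosomes stood at 0.06, 0.05 and 0.05. Each Y-Scr library against the mean of the remaining pair gave 0.02, -0.01 and -0.01. The members took 4.88%, 4.90% and 4.66% of autosomal counts in Y-KO and 4.33%, 4.35% and 4.32% in Y-Scr, with no overlap between the groups. A separation of the libraries was not particular to chromosome 19. By library median, chromosome 15 lay at -0.09 in each Y-KO library and between -0.02 and 0.03 in Y-Scr. Without the leukocyte, cytoskeleton and matrix members, and without cell type markers on the other autosomes, the difference was also 0.18. Other leukocyte, cytoskeleton and matrix genes stayed in on the other autosomes, so this value cannot show what part the cell mixture played. Because chromosome 19 was picked with these results known, the shift is a description with no test.

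**Figure D1:**
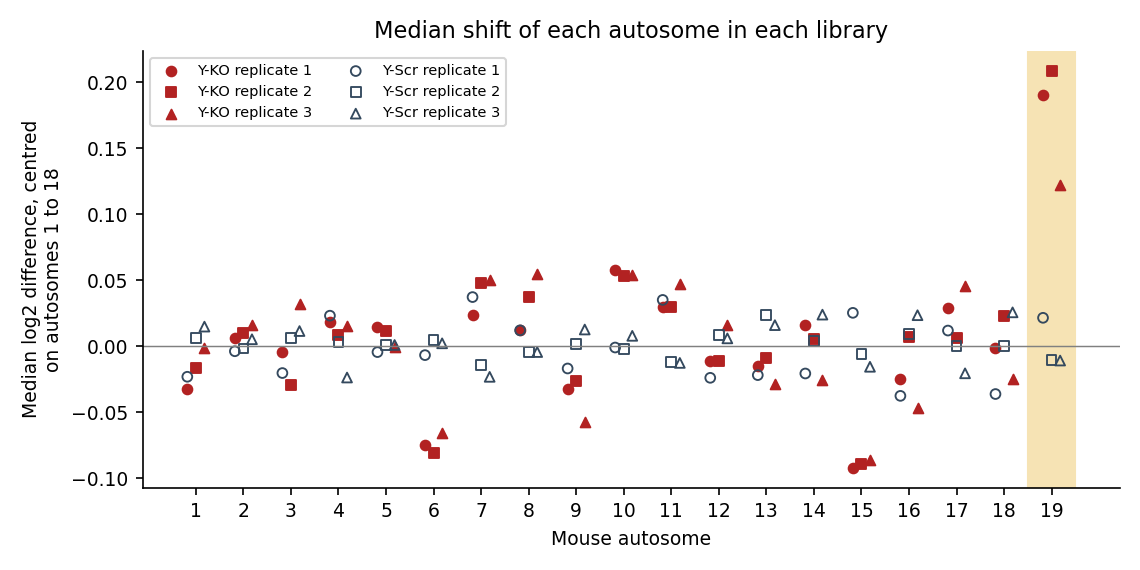
Median log2 difference of each library from the Y-Scr mean (Y-Scr libraries: from the mean of the remaining pair) for each autosome, in log2 units and centred on autosomes 1 to 18. On chromosome 19 (shaded) the 3 Y-KO libraries lie at 0.19, 0.21 and 0.12 and the Y-Scr libraries between -0.01 and 0.02.

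More members were called higher than the genome-wide rate. With edgeR's quasi-likelihood test and a Benjamini-Hochberg adjusted p under 0.05 over all 17837 genes, 114 of 608 members (18.8%) were higher in Y-KO, against a background of 7.82% of all genes tested. Lower calls numbered 42 (6.91%), against a background of 8.27%. Of the other autosomes the highest share of higher calls was 10.7%, on chromosome 10. Counted without a test, 196 members (32.2%) had all 3 Y-KO libraries above all 3 Y-Scr libraries, against 17.5% of all genes, and 104 (17.1%) had all below, against 20.3%. Members above 0 made up 59.9%, against 47.2% on the other autosomes. The counts depended on single libraries: 63, 61 and 189 members were higher without Y-KO replicates 1, 2 and 3, and 80, 43 and 43 without Y-Scr replicates 1, 2 and 3, with lower calls of 28, 30 and 83 and of 22, 18 and 18. In each of these 6 fits the share of higher calls was greater on chromosome 19 than on the other autosomes, for example 7.06% against 2.23% without Y-Scr replicate 2. With library size alone in place of TMM scaling the split turned to 60 higher and 62 lower. The median over the other autosomes moved from -0.03 to -0.17 and that of chromosome 19 from 0.15 to 0.01. Scaling moves all genes of a library alike, so the difference of 0.18 between these medians could hardly change.

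The higher calls were mostly modest in size. Of the 114, 11 were over 2-fold, 39 between 1.5-fold and 2-fold and 64 under 1.5-fold, and their median log2 fold change of 0.55 equalled that of called genes on the other autosomes (0.55). The 42 lower calls were larger, with 25 over 2-fold, and a median of -1.22 (-1.33 on the other autosomes). For scale, a gain from 2 to 3 copies in every cell is 0.58 on the log2 scale, from 3 to 4 copies 0.42 and from 4 to 5 copies 0.32. The chromosome 19 median lay below each of these, and copy number was not measured.

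Along the chromosome the shift was not even. Of the 13 windows of 5 Mb, 12 had a median above that of the other autosomes and 9 were above it in all 3 Y-KO libraries. The size differed by region: 8 windows exceeded it by more than 0.1, a size reached by 71 of 420 windows (16.9%) on the other autosomes. Medians of those 420 windows ranged from -1.37 to 0.34, so the highest was above every window of chromosome 19. Between 6 and 54 of them reached the median of each of the 8 windows. Chromosome 19 medians were 0.13, 0.17 and 0.08 in the 3 windows from 0 to 15 Mb, then -0.02, 0.01, -0.02 and 0.02 in the 4 windows from 15 to 35 Mb. They were 0.22, 0.20 and 0.24 in the 3 windows from 35 to 50 Mb, -0.39 in the window from 50 to 55 Mb with 17 members, and 0.22 and 0.26 in the last 2 windows. Y-KO libraries differed within some windows: the window at 10 to 15 Mb stood at 0.27 and 0.24 above the other autosomes in Y-KO replicates 1 and 2 and at -0.08 in replicate 3. By contrast the window at 45 to 50 Mb stood at 0.20, 0.26 and 0.30. Over the 13 windows, single Y-Scr libraries ranged from -0.17 to 0.15.

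**Figure D2:**
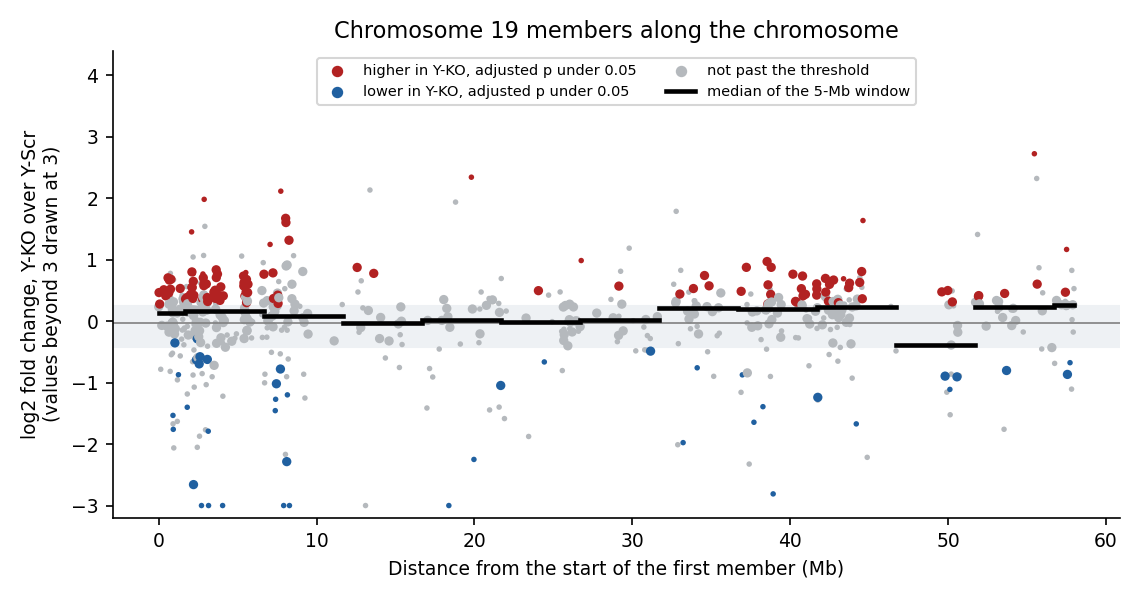
Log2 fold change of each tested member (y axis) by distance from the first member's start (x axis, Mb), with black lines at window medians; large dots have a mean of at least 16 CPM, the 7 values beyond 3 in size are drawn at 3, and the grey band is the interquartile range of the other autosomes. Members scatter on both sides of 0 along the whole length, with medians near 0 in 4 consecutive windows, the fourth to the seventh.

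**Figure D3:**
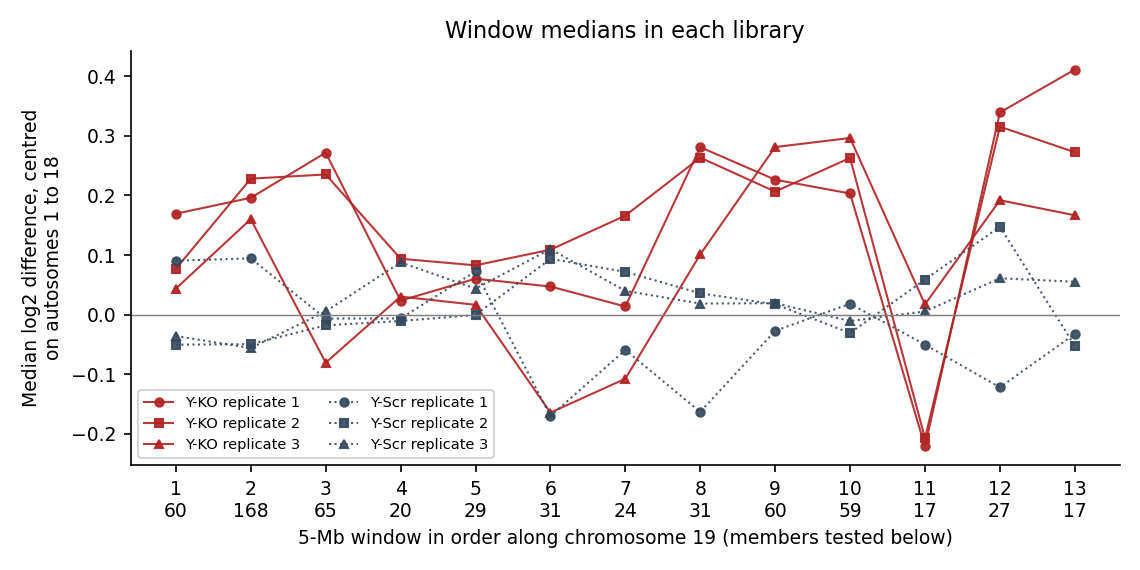
Median of each 5-Mb window in order along the chromosome (x axis), centred on the other autosomes (y axis, log2 units), in each Y-KO and each Y-Scr library. In the windows from 35 to 50 Mb all 3 Y-KO libraries lie between 0.10 and 0.30.

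Joined into stretches drawn after the window medians were seen, the contrast was between 15 to 35 Mb and the rest. The 104 members from 15 to 35 Mb lay 0.03 above the other autosomes, with 6 called higher (5.77%) and 5 lower (4.81%), both under the background shares given above. The 504 members elsewhere lay 0.21 above, with 108 called higher (21.4%) and 37 lower. By stretch, the difference was 0.18 for 293 members from 0 to 15 Mb (64 higher, 23 lower), 0.26 for 150 members from 35 to 50 Mb (34 and 8) and 0.29 for 44 members from 55 Mb to the end (7 and 3). Of 133 blocks of 15 Mb on the other autosomes, each with at least 50 tested genes, medians ranged from -0.27 to 0.13. The stretches from 0 to 15 Mb and from 35 to 50 Mb had medians of 0.15 and 0.22, which 0 of these blocks reached. The blocks lay on a fixed grid, whereas the limits of the stretches were set after the window medians were seen. That favours the stretches, so the comparison cannot show that either is unusual. The window at 50 to 55 Mb lay at -0.36, with 3 members called in each direction (17.6% each). Taken by library, it lay at -0.22 and -0.21 in Y-KO replicates 1 and 2 and at 0.02 in replicate 3. With its 9 members of at least 16 CPM it lay at -0.12. Among members of at least 16 CPM the differences were 0.18 from 0 to 15 Mb, -0.00 from 15 to 35 Mb (45 members), 0.22 from 35 to 50 Mb and 0.21 from 55 Mb on.

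The stretches also differed in gene content. From 0 to 15 Mb there were 19.5 tested members per Mb with a median level of 25.2 CPM, and from 15 to 35 Mb 5.2 per Mb with a median of 8.42 CPM. From 35 to 50 Mb there were 10.0 per Mb at 22.7 CPM. Level moved with the fold change: members above 64 CPM had a median of 0.28 (0.09 on the other autosomes), those from 16 to 64 CPM 0.18 (0.03), from 4 to 16 CPM 0.07 (-0.09), from 1 to 4 CPM -0.08 (-0.30) and at most 1 CPM -0.29 (-0.33). In each of these 5 classes chromosome 19 was above the other autosomes, by 0.04 in the lowest and by 0.15 to 0.21 in the others. Above 64 CPM, 40.2% of 169 members were called higher, against 17.4% on the other autosomes. At a like number of tested genes per window the other autosomes lay lower. With more than 80 tested genes the median was 0.17 for chromosome 19, from its 1 window at 5 to 10 Mb, and -0.01 for the other autosomes. With 40 to 80 genes the medians were 0.17 and -0.03. In sparser windows the difference was smaller, with 0.05 and -0.03 at 20 to 40 genes and 0.01 and -0.03 below that. The windows from 15 to 35 Mb are among these sparser ones, so gene number and position cannot be told apart.

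**Figure D4:**
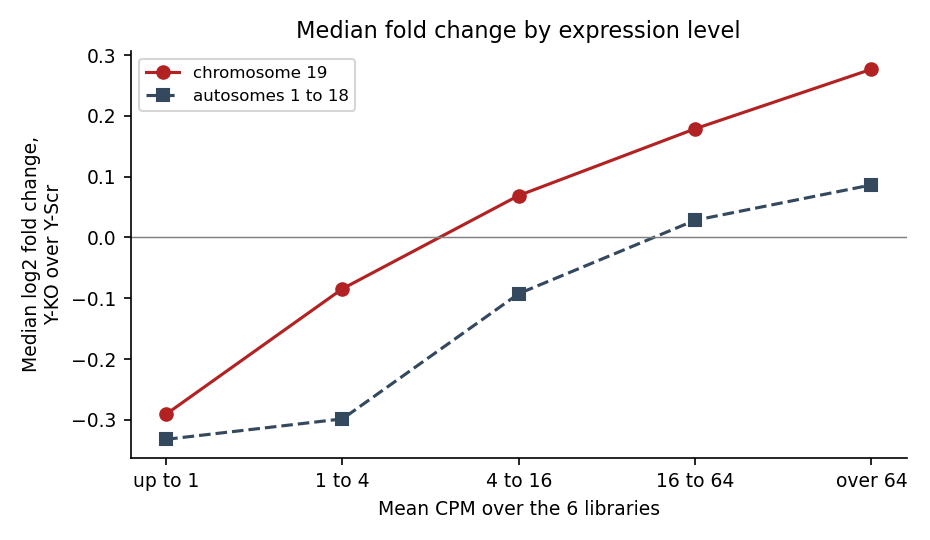
Median log2 fold change (y axis) of chromosome 19 members and of genes on the other autosomes by class of mean CPM over the 6 libraries (x axis). Chromosome 19 lies above the other autosomes in all 5 classes, by 0.04 in the lowest.

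Single genes are described by the most abundant members of each window. In the crowded proximal stretch Eef1g, the gamma subunit of translation elongation factor 1 (8944405 to 8955843, GRCm39 as all gene positions here), stood at 1714, 1743 and 1724 CPM in Y-KO and 1332, 1225 and 1196 CPM in Y-Scr. Its groups did not overlap, and it was 1.38-fold higher (log2 fold change 0.47, SE 0.06, edgeR adjusted p = 0.00233). Ddb1, the DNA-damage-binding adaptor of Cul4 ubiquitin ligases (10582691 to 10607183), stood at 803, 826 and 782 against 620, 621 and 627 CPM, 1.29-fold higher (edgeR adjusted p = 0.0061). Not every abundant gene of the stretch moved. Ppp1ca, a catalytic subunit of protein phosphatase 1, overlapped between the groups at 461, 451 and 479 against 509, 465 and 454 CPM. Fth1, the ferritin heavy chain, overlapped at 4449, 4257 and 3379 against 3598, 3211 and 3041 CPM (edgeR adjusted p = 0.101), and Cdk2ap2 lay above Y-Scr with a log2 fold change of 0.27 without passing the test (edgeR adjusted p = 0.0563). Mpeg1, the pore-forming perforin-2 of macrophages, stood at 373 and 392 CPM in Y-KO replicates 1 and 2 but 157 CPM in replicate 3, below the 167 to 183 CPM of Y-Scr.

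Between 15 and 35 Mb, of the 2 most abundant members of each of 4 windows, 3 were called higher, 1 lower and 4 not. Each of these had a mean above 64 CPM, a class in which 40.2% of all members were called higher and 5.92% lower. Over all genes tested the shares were 7.82% and 8.27%. Anxa1, the phospholipid-binding annexin A1 (20350792 to 20368308), stood at 754, 741 and 806 CPM in Y-KO and 789, 755 and 737 CPM in Y-Scr, and Zfand5, a ubiquitin-binding zinc finger protein, at 134, 140 and 138 against 138, 131 and 139 CPM. Both overlapped fully, with log2 fold changes of 0.01 (SE 0.07 and 0.08). Lipa, the lysosomal acid lipase (34469718 to 34504874), was lower in Y-KO, with 89.8, 94.9 and 102 against 136, 129 and 137 CPM (log2 fold change -0.49, edgeR adjusted p = 0.00658). Psat1, phosphoserine aminotransferase of serine synthesis (15882042 to 15924701), stood at 425, 411 and 269 against 211, 198 and 193 CPM, 1.83-fold higher (log2 fold change 0.87, SE 0.16, edgeR adjusted p = 0.00848). Prune2 was 1.71-fold and Pum3, an RNA-binding protein of the nucleolus, 1.41-fold higher, with no overlap in either. Jak2, the tyrosine kinase of cytokine receptors, stood at 101, 98.6 and 58.1 against 105, 120 and 115 CPM (edgeR adjusted p = 0.198).

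From 35 Mb on, the 2 most abundant members of each of 6 windows lay above Y-Scr in all 3 Y-KO libraries, and 8 of these 12 were called higher. Such a separation was found in 32.2% of all members and 17.5% of all genes. Higher calls made up 40.2% of all members above 64 CPM, the class of these 12, and 7.82% of all genes. The 8 called include both members of the window at 50 to 55 Mb, Smc3 and Mxi1, whose direction was opposite to the median of that window. Myof, the membrane repair protein myoferlin (37887484 to 38032025), stood at 664, 686 and 683 CPM against 386, 414 and 415 CPM, 1.67-fold higher with no overlap (log2 fold change 0.74, SE 0.07, edgeR adjusted p = 0.000343). Gsto1, a glutathione transferase of the omega class (47843409 to 47853229), stood at 397, 395 and 370 against 242, 217 and 205 CPM, 1.75-fold higher (log2 fold change 0.81, SE 0.09, edgeR adjusted p = 0.000695). Scd2, a stearoyl-CoA desaturase, was 1.35-fold, Eif3a, the largest subunit of translation initiation factor 3, 1.39-fold, Mxi1, a Max partner that opposes Myc, 1.41-fold and Afap1l2 1.37-fold higher. Acsl5, a long-chain acyl-CoA synthetase, was 1.32-fold and Smc3, a ring subunit of cohesin, 1.24-fold higher. Smc3 passed with an edgeR adjusted p of 0.0453 and lost its call in 10 of 14 other settings. The calls of Scd2 and Acsl5 were lost in 7, that of Afap1l2 in 6 and that of Eif3a in 5. Tnks2, Tm9sf3, Nfkb2 and Prdx3 did not pass the test, with log2 fold changes of 0.16, 0.17, 0.19 and 0.26.

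By function, members for mitochondria and for RNA had the largest shares of higher calls among 7 lists of chromosome 19 genes. These were 14 of 30 (46.7%) and 16 of 37 (43.2%), against 18.8% of all members and 7.82% of all genes tested. Of 37 listed genes for RNA processing, translation and ribosome assembly, 16 were higher and 1 lower, with a median log2 fold change of 0.32, beside 0.15 over all members and -0.03 on the other autosomes. These genes are abundant, with a median level of 67.4 CPM, and their 43.2% of higher calls lay close to the 40.2% of all members above 64 CPM, whose median was 0.28. Snhg1, a host gene of small nucleolar RNAs, stood at 87.5, 98.6 and 92.2 against 63.7, 63.7 and 59.8 CPM, 1.49-fold higher (edgeR adjusted p = 0.0035). Sf3b2, a splicing factor subunit, was 1.35-fold higher at 383, 388 and 359 against 290, 274 and 273 CPM. The nucleolar scaffold gene Nolc1 was higher with a log2 fold change of 0.67. The member that was lower was Neat1, the long non-coding RNA that builds paraspeckles (5874736 to 5895898), at 275, 287 and 383 against 526, 506 and 499 CPM (log2 fold change -0.69, SE 0.12, edgeR adjusted p = 0.00773). Its neighbour Malat1, named after its values were seen, overlapped at 300, 293 and 438 against 329, 440 and 460 CPM. Without Y-KO replicate 1 or 2, 7 and 8 genes of this list were higher, without replicate 3 23, and without Y-Scr replicates 1, 2 and 3 10, 6 and 8. In the same order, 10.3%, 10.0%, 31.0%, 13.2%, 7.06% and 7.07% of all members were called higher.

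Of 30 listed members for mitochondria and amino acid metabolism, 14 were higher (46.7%) and 1 lower (3.33%), with a median of 0.30. Their median level was 41.9 CPM, and 20.4% of all members from 16 to 64 CPM and 40.2% above 64 CPM were called higher. The list median was close to even over the Y-KO libraries, at 0.34 above the other autosomes in each. Aldh18a1, the enzyme that starts proline synthesis (40538701 to 40576907), stood at 159, 154 and 107 CPM against 75.5, 77.3 and 75.6 CPM, 1.83-fold higher (edgeR adjusted p = 0.00542). Got1, the cytosolic aspartate aminotransferase of the malate-aspartate shuttle, stood at 169, 158 and 135 against 95.4, 87.5 and 89.0 CPM, 1.70-fold higher (edgeR adjusted p = 0.00214). Ndufv1, a subunit of respiratory complex I, was 1.43-fold and Prdx5, a peroxiredoxin, 1.42-fold higher. Pcx, pyruvate carboxylase, was lower at 4.46, 3.29 and 6.22 against 8.57, 8.39 and 8.60 CPM (edgeR adjusted p = 0.0424). Without single libraries 2 to 18 genes of the list were called higher, the fewest without Y-Scr replicate 2. In these fits 7.06% to 31.0% of all members were called higher, the smallest share also without Y-Scr replicate 2. On the other autosomes the share ran from 2.23% to 15.5%. The share of counts from the mitochondrial genome, which is not on chromosome 19, was 6.44%, 6.39% and 6.41% in Y-KO and 2.87%, 2.94% and 2.99% in Y-Scr, and its part in this result was not tested.

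Of 26 members for DNA replication, repair and mitosis, 6 were higher (23.1%) and 1 lower (3.85%), with a median of 0.27. Their median level was 62.0 CPM. Of all members, 20.4% of those from 16 to 64 CPM and 40.2% of those above 64 CPM were called higher, so the share was no larger than at like levels. Banf1, the barrier-to-autointegration factor that rebuilds the nuclear envelope (5414666 to 5417196), stood at 310, 305 and 258 against 180, 164 and 158 CPM, 1.74-fold higher (edgeR adjusted p = 0.00141). Sfr1, a cofactor of homologous recombination, was 1.55-fold and Cdca5, the cohesin protector sororin, 1.63-fold higher, neither with overlap. The lower member was Dntt, the terminal transferase of developing lymphocytes, at 1.36, 1.17 and 0.41 against 4.15, 2.94 and 2.15 CPM. Of 29 tested cytoskeleton and matrix members 7 were higher (24.1%) and 3 lower (10.3%, near the background of 8.27%). Their median level was 49.9 CPM, and the share of higher calls lay between the 20.4% and 40.2% of all members in those 2 classes. Ahnak, a giant scaffold protein under the plasma membrane, stood at 1556, 1572 and 1730 against 986, 1078 and 1137 CPM, 1.52-fold higher (edgeR adjusted p = 0.00168). Add3, the membrane skeleton protein gamma-adducin, was lower at 60.5, 54.4 and 63.7 against 106, 111 and 115 CPM (log2 fold change -0.89, SE 0.09, edgeR adjusted p = 0.000615). Ablim1, an actin-binding LIM protein, was also lower, with a log2 fold change of -0.80.

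Of 23 tested lipid members 5 were higher (21.7%) and 1 lower, and 15 lay above 0. Their median was 0.06 (-0.09 with library size alone, where the other autosomes lay at -0.17). The median level was 28.3 CPM, and 20.4% of all members from 16 to 64 CPM were called higher. Chka, choline kinase alpha, stood at 77.4, 77.7 and 70.1 against 45.7, 46.7 and 45.7 CPM, 1.63-fold higher (edgeR adjusted p = 0.00137), and the Wnt co-receptor gene Lrp5 was 1.42-fold higher. Of 29 tested signalling and transcription members 6 were higher (20.7%) and 3 lower (10.3%, near the background of 8.27%), with a median of -0.06. Their median level was 63.5 CPM. Of all members, 20.4% of those from 16 to 64 CPM and 40.2% of those above 64 CPM were called higher. Vegfb, a ligand of the endothelial receptor Flt1, stood at 80.2, 85.7 and 79.8 against 48.9 to 51.4 CPM, 1.64-fold higher (edgeR adjusted p = 0.00111). Grk5, a kinase that desensitises G-protein-coupled receptors, was lower at 32.1, 24.8 and 36.7 against 56.6, 55.5 and 58.5 CPM. Pdcd4, an inhibitor of translation initiation, was lower too, with a log2 fold change of -0.91.

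Leukocyte members had more lower than higher calls. Of 34, 6 were higher (17.6%) and 12 lower (35.3%), with a median of -0.20. Over all members the shares were 18.8% and 6.91%, and over all genes tested 7.82% and 8.27%. Against all members the list stood apart in lower calls alone, and against all genes tested both of its shares were larger. Against the other autosomes the leukocyte median was 0.11, 0.00 and -0.82 in Y-KO replicates 1, 2 and 3. Ctsw, cathepsin W of cytotoxic lymphocytes (5515071 to 5518535), stood at 15.1, 15.1 and 11.9 CPM in Y-KO and 98.9, 88.0 and 79.0 CPM in Y-Scr, which was 6.32-fold lower (edgeR adjusted p = 2.15e-05; log2 fold change -2.66, SE 0.14). Rasgrp2, a Rap exchange factor of lymphocytes and platelets, was 3.46-fold and Tbc1d10c, a regulator of lymphocyte signalling, 3.39-fold lower. The T cell surface genes Cd5 and Cd6 were lower with log2 fold changes of -1.46 and -1.02, and Dock8, a guanine nucleotide exchange factor of leukocytes, stood at 59.5, 53.0 and 30.7 against 97.0, 99.9 and 98.8 CPM. The T and NK cell markers given above were lower in the same libraries, and their part in these differences was not tested. Cd274, which encodes the checkpoint ligand PD-L1, stood at 107 and 116 CPM in Y-KO replicates 1 and 2 and 47.3 CPM in replicate 3, around the 68.1 to 78.1 CPM of Y-Scr, and did not pass the test (edgeR adjusted p = 0.563). Without Y-KO replicate 3, 13 of the 34 leukocyte members were higher and 14 lower, where 31.0% of all members were higher and 13.6% lower.

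The Ms4a cluster, of which 2 promoters are printed above, held members called in both directions. Ms4a4b, a T cell member (11420917 to 11444419), stood at 34.4, 32.3 and 19 CPM against 139, 139 and 140 CPM, which was 4.87-fold lower (edgeR adjusted p = 0.000276; log2 fold change -2.29, SE 0.20). Ms4a1, the B cell antigen CD20, stood at 0.25, 0 and 0.36 against 2.27, 2.13 and 1.79 CPM (edgeR adjusted p = 0.0305), and Ms4a2, the beta chain of the IgE receptor of mast cells and basophils, had 2 counts in all of Y-KO and 712 in all of Y-Scr. Ms4a4a, a macrophage member (11352887 to 11370154), stood at 87.7, 85.6 and 34.5 against 17.3, 26.6 and 21.4 CPM, 3.19-fold higher (log2 fold change 1.67, SE 0.33, edgeR adjusted p = 0.0116). Ms4a6d, also of macrophages, stood at 202, 189 and 80.4 against 64.7, 64 and 60.8 CPM (edgeR adjusted p = 0.0185). In both, Y-KO replicate 3 lay nearest Y-Scr, and the Ms4a6d call was kept when Y-KO replicate 3 was left out but by none of the other 5 fits that leave out 1 library. Ms4a4c and Ms4a6c lay above Y-Scr in Y-KO replicates 1 and 2 and below it in replicate 3, and did not pass the test (edgeR adjusted p = 0.1 and 0.0781). Ms4a genes are similar in sequence, so counts split between them are uncertain. Ms4a8a was the only called member of 156 whose groups overlapped.

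**Figure D5:**
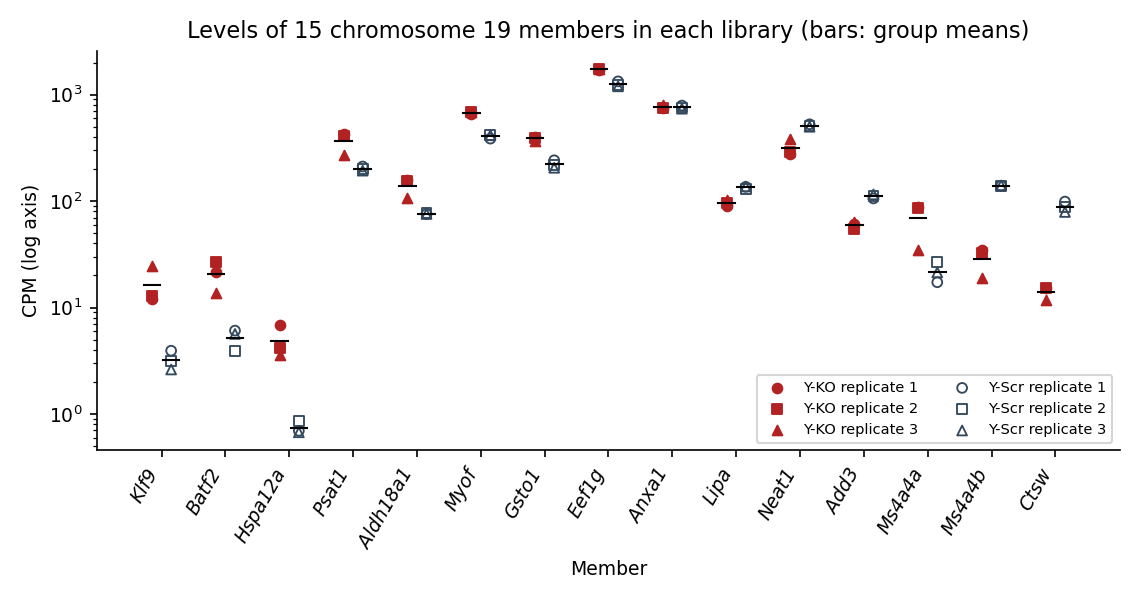
CPM (log axis) of 15 chromosome 19 members in each of the 6 libraries, with bars at the group means. Klf9, Batf2, Hspa12a and Myof lie higher and Ms4a4b and Ctsw lower in all 3 Y-KO libraries, while Anxa1 overlaps.

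The largest increases were single genes spread over the chromosome. Hspa12a, a distant relative of the Hsp70 chaperones (58784182 to 58932086), stood at 6.89, 4.2 and 3.59 CPM against 0.69, 0.85 and 0.67 CPM, 6.61-fold higher (log2 fold change 2.72, SE 0.34, edgeR adjusted p = 0.00148). Klf9, a zinc finger transcription factor induced by glucocorticoid and thyroid hormones (23118590 to 23145498), stood at 12.1, 12.9 and 24.3 against 3.93, 3.16 and 2.62 CPM, 5.07-fold higher (log2 fold change 2.34, SE 0.31, edgeR adjusted p = 0.00188). It lies in the window at 20 to 25 Mb, whose 29 members had a median of 0.01 with 1 called higher, Klf9 itself. Batf2, an interferon-inducible bZIP factor (6191013 to 6222506), stood at 21.6, 26.5 and 13.6 against 6.07, 3.88 and 5.65 CPM, 3.95-fold higher (edgeR adjusted p = 0.00234). Its annotated span overlaps the end of Arl2, itself 1.53-fold higher, so the counts of both are uncertain. Cfap58, a protein of cilia and flagella, was 3.11-fold, Cst6, a cystatin that inhibits cysteine proteases, 2.74-fold, Syt7, a synaptotagmin of lysosomal exocytosis, 2.38-fold, Sfxn4 2.25-fold and Gldc, the glycine decarboxylase of mitochondria, 1.98-fold higher, each with no overlap. Among the largest decreases that are not leukocyte genes, Nrxn2, a neurexin, was 9.15-fold, Golga7b 7.02-fold, Mamdc2 4.76-fold and Hectd2 3.94-fold lower, from levels under 5 CPM in Y-Scr. Mamdc2 (23279973 to 23425806) lies in the same window as Klf9 and stood at 1.11, 0.54 and 0.77 against 4.57, 3.23 and 3.79 CPM, so 2 genes of this window differed in opposite directions. Of the 64 members named by rule 52 were called, and 14 of these were called in each other setting that tested them. Klf9, Batf2, Myof, Gsto1, Vegfb, Ctsw and Ms4a4b were among those tested in all 14, and Hspa12a, Mamdc2 and Ms4a2 were tested in 13, being below the filter of at least 4 CPM. Among the calls lost in 3 or more settings were those of Nrxn2 and Ms4a1 (6 settings each), Hectd2, Gldc and Lrp5 (5 each), Sfxn4 (4) and Ms4a4a, Ndufv1 and Prdx5 (3 each), in each case including fits without 1 Y-Scr library.

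One setting lowered the counts more than any other. When the closest libraries were summed into 1 sample each (Y-KO replicates 1 and 2, and Y-Scr replicates 2 and 3), 9 members were higher and 7 lower. All 16 were also called with 6 separate libraries, and the median shift stayed at 0.16. None of the listed mitochondrial, RNA or replication members was then called, and 1.48% of chromosome 19 members were higher against 0.60% on the other autosomes.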

How the data were processed

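The authors deposited 1 table of read counts, not normalized, with a column for each library, counted with featureCounts 1.5.3 on the GRCm39 annotation of Ensembl release 112, per the file headers. The submitters' processing notes also name FastQC 0.12.1, MultiQC 1.13, Trimmomatic 0.39 and STAR 2.5.2b. The recorded command sets no strand option, so overlapping and antisense genes are uncertain, as are similar genes. Reads carry no molecular identifiers, and the libraries' totals limit precision for counting error only. Symbols were matched by gene ID for 51880 genes (90.7%).

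Groups followed the sample titles. In R 4.3.3, edgeR 4.0.16 (filterByExpr, TMM, quasi-likelihood test, group alone) tested 17837 genes, and a Benjamini-Hochberg adjusted p under 0.05 was called. Each SE is the log2 fold change divided by the square root of its F statistic. Windows of 5 Mb with at least 10 tested members were used. Medians of chromosome 19, windows and lists have no test. For a single Y-KO library, log2 CPM was compared with the Y-Scr mean. Promoters matched 414 members (68.1%), under 80%, so their composition was not compared over members.

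The members and lists were chosen with earlier results of these data known. Named by rule are the 10 members with the largest fold in each direction among calls without overlap and at least 2 CPM, and the 2 most abundant of each window. The rule also names up to 4 members of each list, those with the smallest edgeR p. The rule names 1 further member, which is not reported here. Malat1, Nolc1, Pcx, Dntt, Pdcd4, Cd5, Cd6, Dock8, Cd274, Ms4a4c, Ms4a6c and Ms4a8a were picked outside this rule, with their values known. The alternatives were a replicate block, DESeq2 1.42.0, other scalings, filters and window sizes, the mean, other members, leaving out each library and, added after seeing the data, summed close pairs, longer stretches and members of at least 16 CPM. The edgeR step was tested on simulated data. Plots used matplotlib 3.10.9.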

Additional observations from a re-analysis of the deposited data

How the results depend on the processing

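The median shift of chromosome 19 stayed between 0.15 and 0.20 in all 17 alternatives run. It moved by less than the SD over the Y-KO libraries (0.05). A change of scaling moves all genes of a library alike and cancels in this difference, so those settings could hardly change it. The same holds for settings that add few members, such as keeping the Ifit genes. The shift was 0.17 to 0.20 when single libraries were left out. It was 0.18 without the leukocyte, cytoskeleton and matrix members, where the other autosomes lost only the cell type markers. Windows above the other autosomes numbered 10 to 12 of 13 when single libraries were left out, 7 of 7 with 10-Mb windows, 16 of 19 with 2-Mb windows and 9 of 12 among genes of at least 4 CPM. The counts of called members moved more. Without single libraries 43 to 189 were higher and 18 to 83 lower. With library size alone 60 were higher and 62 lower, and with close pairs summed 9 were higher and 7 lower, where fewer samples enter the fit; the share of members called higher was above that of the other autosomes in each. DESeq2 called 124 higher and 45 lower. The replicate numbers did not pair the libraries (correlation of deviations between same-numbered libraries 0.00042, 0.0054 and -0.014 over 8663 genes); with a replicate block 84 were higher and 30 lower, and all 114 were among the 156 called without it. Of the 52 named members that were called, 0 reversed direction and 109 of 720 calls in other settings were lost; the cause was not tested. Of the 104 members of at most 1 CPM, 0 were called higher and 2.88% lower, where the other autosomes had 0.40% and 4.76%.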
